A study of Mus musculus with 4 samples.

Results

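The interval from Trps1 to Eif3h on mouse chromosome 15 spans a gene desert and 100 kb on either side. It held 40 of the 65467 ATAC-seq peaks of control facial surface ectoderm, 31 of them between the start sites of both genes. Of the 40, 9 (22.5%) contained a region called as more accessible in control than in AP-2 mutant ectoderm, against 4.48% of all control peaks. Such a region is called AP-2-dependent here, and the 9 are among 3103 in the whole series. Peaks and regions were taken if their centre lay between the transcriptional start sites of both genes or within 100 kb beyond either one, in the interval chr15:50790041-51965523 of the GRCm38 assembly. The locus was chosen by the measured values, because it was already known to hold many AP-2-dependent regions. Its number of regions and its share of peaks with a region are therefore descriptions with no test. The nearest control peaks within the edges of the interval lay at −91.0 kb, with a summit −log10 p of 5.48, and at 1051 kb, with 7.22, where distances are counted from the Trps1 start towards Eif3h and negative values lie within Trps1 or past it. The nearest ones outside lay at −153.8 kb, with 4.61, and at 1101 kb, with 10.5. The nearest AP-2-dependent regions outside were at −1484 kb and 2183 kb.

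ATAC-seq finds accessible DNA by the insertions of a transposase. The tissue was the surface ectoderm of the facial prominences at embryonic day 11.5, freed from the mesenchyme by enzyme and dissection. The 2 control libraries came from littermates with the genotype Tfap2a flox/+; Tfap2b flox/+ that did not carry Crect, and the 2 EDKO libraries (ectoderm double knockout) from embryos that were Crect; Tfap2a flox/flox; Tfap2b flox/flox. Both groups thus carried floxed alleles of both genes, 1 copy of each in controls and 2 copies in EDKO embryos, and Crect, a Cre transgene driven by an intronic enhancer of Tfap2a, was present in the EDKO embryos only. All libraries of a call were combined by the authors, so no peak can be given per library or with a spread between replicates, and the reads behind it cannot be counted. Lower accessibility per cell and fewer accessible cells in the EDKO ectoderm cannot be told apart. A control peak lay within 1 kb of the start site of all 10 ectodermal and epithelial genes examined (Epcam, Cdh1, Krt8, Krt18, Krt14, Krt5, Trp63, Esrp1, Grhl2 and Grhl3), with a median summit −log10 p of 10.3. The 7 genes reported for facial mesenchyme (Prrx1, Twist1, Pdgfra, Col1a1, Col1a2, Alx1 and Alx4) had one as well, with a median of 5.69, and none of 5 blood and endothelial genes (Hbb-bt, Hba-a1, Pecam1, Cdh5 and Ptprc) had one. The part of mesenchymal cells in the peaks of the desert was not tested.

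Gene deserts are long stretches without protein-coding genes, and those beside developmental regulators often hold enhancers that act on a distant promoter. Trps1 encodes a GATA-type zinc finger protein that represses transcription. Loss of its human counterpart causes tricho-rhino-phalangeal syndrome, with sparse hair, a characteristic nose and shortened fingers. Eif3h encodes a subunit of translation initiation factor 3 and is used by most cells. AP-2 proteins, here the products of Tfap2a and Tfap2b, are transcription factors of the ectoderm and neural crest that bind a GC-rich palindrome as dimers. ATAC-seq does not tell which promoter a region acts on, and no assignment to either gene was made.

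The sequences of 6 of the 9 regions are shown first, because the regions differed in whether they held an AP-2 string and because the pair with the largest values did not hold the AP-2 palindrome GCCNNNGGC. Regions are numbered from Trps1 towards Eif3h. All are plus-strand sequences of GRCm38, written 5′ to 3′ in lower case, with matches in capitals. The main AP-2 string was this palindrome, which reads the same on both strands, and the other forms were CCCNNNGGG and, added after the data were seen, GCCNNNGGG. The TEAD string was GGAATG, which appears as CATTCC when it lies on the minus strand. Regions 1, 6 and 9 are given as 121 bp around their GCCNNNGGC match.
Region 1, AP-2 match in capitals, chr15:50963693-50963813: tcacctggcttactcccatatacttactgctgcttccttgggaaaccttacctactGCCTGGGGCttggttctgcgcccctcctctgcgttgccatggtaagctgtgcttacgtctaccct
Region 6, AP-2 match in capitals, chr15:51156000-51156120: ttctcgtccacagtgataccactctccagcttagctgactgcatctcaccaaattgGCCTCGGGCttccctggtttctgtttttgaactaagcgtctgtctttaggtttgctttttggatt
Region 9, AP-2 match in capitals, chr15:51511499-51511619: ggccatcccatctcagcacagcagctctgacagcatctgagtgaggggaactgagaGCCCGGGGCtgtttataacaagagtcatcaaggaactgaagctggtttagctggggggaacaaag
Regions 2 and 4, which had the largest area under the curve among the 9, are given as 201 bp around the summit. Region 2 had a TEAD string and a GCCNNNGGG string on the minus strand, and region 4 had no AP-2 or TEAD string in this window. Region 7, the shortest, is given whole.
Region 2, TEAD and AP-2 matches in capitals, chr15:51038997-51039197: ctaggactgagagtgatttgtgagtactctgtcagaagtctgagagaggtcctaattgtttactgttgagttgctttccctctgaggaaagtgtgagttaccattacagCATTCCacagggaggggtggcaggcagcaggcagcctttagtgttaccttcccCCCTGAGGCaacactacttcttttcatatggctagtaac
Region 4, no match, chr15:51071119-51071319: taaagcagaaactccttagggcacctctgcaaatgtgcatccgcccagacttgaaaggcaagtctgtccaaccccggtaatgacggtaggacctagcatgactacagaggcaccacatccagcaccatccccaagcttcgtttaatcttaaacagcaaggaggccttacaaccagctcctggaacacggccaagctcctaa
Region 7, AP-2 match in capitals, chr15:51216666-51216853: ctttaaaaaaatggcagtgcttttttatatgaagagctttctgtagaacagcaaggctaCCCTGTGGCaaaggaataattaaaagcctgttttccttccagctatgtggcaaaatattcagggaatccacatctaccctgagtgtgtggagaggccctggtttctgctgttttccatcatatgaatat

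The start sites of Trps1 (ENSMUSG00000038679) and Eif3h (ENSMUSG00000022312) lay 975.5 kb apart, at positions 50890041 and 51865523, and both genes are read from the minus strand. Trps1 therefore extends away from the gap, whereas the body of Eif3h fills the last 79.0 kb of it and leaves 896.5 kb between the Trps1 start and the 3′ end of Eif3h. The annotation placed no other protein-coding start site in the gap. It held the long non-coding RNA genes Gm48913, Gm19303 and Gm34562 and the processed pseudogene Gm2361. Beyond Eif3h, the flank held the start of Utp23, a factor of ribosomal RNA processing, and the 3′ part of Rad21, which encodes a cohesin subunit.

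The promoters of the coding genes were accessible in control ectoderm and held no AP-2-dependent region. The peak over the Trps1 start spanned chr15:50888243-50890829, a width of 2587 bp, with a summit −log10 p of 7.71. The Eif3h start lay in a peak at chr15:51864822-51865851 with a summit of 10.3, and the Utp23 start in one at chr15:51876960-51877998, also with 10.3. The −log10 p at the summit measures how far the combined control libraries exceeded the genomic background at the highest position of a peak. Of all 21938 coding start sites, 65.5% had a control peak within 1 kb. The 6 other control peaks in the Trps1 flank lay in introns of Trps1, with summits between 3.62 and 6.64, and none of the 7 peaks of this flank contained a region (0%, 95% Wilson interval 0 to 35.4%). Beyond Eif3h there were 2 peaks, neither with a region. In the whole series 1.52% of peaks lying up to 5 kb from any start site, and 4.48% of all control peaks, contained one, so counts of 0 among so few peaks are near the background.

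All 9 regions lay between the start sites. Of the 31 control peaks there, 9 contained a region, or 29.0% (Wilson interval 16.1 to 46.6%), and over the whole interval 9 of 40 did, or 22.5% (12.3 to 37.5%). The share among all control peaks of the series was 4.48%. Among distal control peaks, those with no start site within 5 kb, it was 5.75% in the series, against 9 of 29, or 31% (17.3 to 49.2%), in the gap. It was 7.24% among the control peaks of all gaps of at least 500 kb. With only peaks and regions of an area of 500 or more, 2 of 17 control peaks between the start sites contained a region (11.8%, Wilson interval 3.29 to 34.3%), against 3.61% of the distal peaks and 2.46% of all control peaks of the series. All these intervals cover counting error only, and the difference is the one for which the locus was selected.

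**Figure D1:**
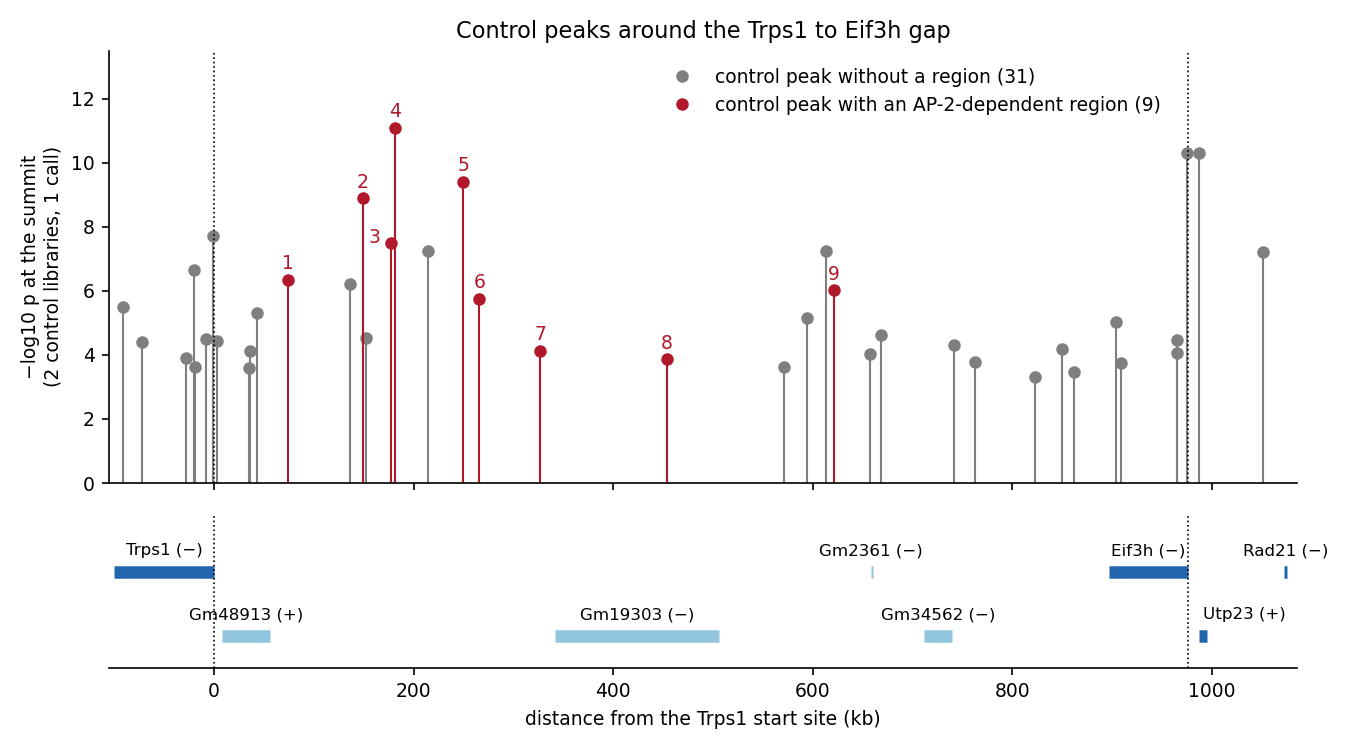
Height at the summit (−log10 p, 2 control libraries in 1 call) of the 40 control peaks against distance from the Trps1 start site in kb, with the gene bodies as bars below (dark, protein-coding; light, non-coding genes and the pseudogene; sign, strand) and the start sites of Trps1 and Eif3h as dotted lines. The 9 peaks with an AP-2-dependent region, in red and numbered, all lie between the start sites, 8 of them within the 454 kb next to Trps1.

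The 9 regions were concentrated on the Trps1 side. Up to the midpoint of the gap 8 of 15 control peaks contained a region (53.3%, Wilson interval 30.1 to 75.2%), and beyond it 1 of 16 did (6.25%, 1.11 to 28.3%). The shares in the series were 4.48% of all control peaks and 5.75% of distal ones, so the count beyond the midpoint is near the background. Peak height was not matched between the sides. From the first to the eighth region, over 380.6 kb at chr15:50963644-51344197, a stretch marked out after its values were seen, 8 of 11 consecutive control peaks contained one. The other 18 distal peaks of the gap contained 1. The run was broken by peaks at 136, 152 and 214.7 kb from the Trps1 start, with summits of 6.23, 4.54 and 7.26. The 4 peaks nearest to the Trps1 start on the gap side, at 3.42, 35.5, 35.8 and 43.3 kb, had no region, and 3 of them lay in the last intron of Gm48913. Neighbouring regions were 3.70 to 167.5 kb apart, with a median of 64.7 kb. Regions 3 and 4 were the closest pair. The 31 control peaks of the gap had a median spacing of 24.0 kb, and the longest distance between neighbours was 127.3 kb, between regions 7 and 8.

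The 31 control peaks without a region were spread over the whole interval. Apart from those at start sites, the strongest lay at 214.7 kb (summit −log10 p of 7.26), 613 kb (7.24) and 1051 kb (7.22), all intergenic, and in intron 2 of Trps1 at −20.3 kb (6.64). The next 6 had summits between 4.61 and 6.23 and lay at 136, 594 and 668 kb between genes, at −91.0 kb in intron 5 of Trps1, at 43.3 kb in Gm48913 and at 904 kb in intron 5 of Eif3h. The introns of Eif3h held 4 control peaks in all, with summits of 3.75 to 5.02. By the position of the summit, 24 of the 40 control peaks were intergenic, the peak at the Utp23 start among them. Of the others, 6 lay in introns of Trps1, 4 in introns of Eif3h, 3 in Gm48913 and 1 in Gm19303. The remaining 2 were the peaks at the Trps1 and Eif3h starts.

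The regions with the largest values were 2 and 4. The value used is the area under the curve, the summed excess of −log10 p over the region when the control libraries were set against the EDKO libraries, and its percentile among the 3072 AP-2-dependent regions on the 21 chromosomes. Region 2 (chr15:51038816-51039320, 149 kb upstream of Trps1) had an area of 986, at the 86.6th percentile, and a summit −log10 p of 6.26. Region 4 (chr15:51071025-51071459, 181 kb) had an area of 734, at the 78.9th percentile, and a summit of 5.59. Both were intergenic, and each lay in one of the 3 strongest distal control peaks of the gap.

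Regions 5 and 6 were of middle size and 16.0 kb apart. Region 5 (chr15:51139627-51140112, 249.8 kb) had an area of 429, and region 6 (chr15:51155667-51156138, 266 kb) one of 432, at percentiles 56.1 and 56.4. Their summits differed more, with a −log10 p of 5.70 in region 5 and 4.24 in region 6. Region 3 (chr15:51067317-51067758, 177 kb) had an area of 329 and a summit of 4.11. All 3 were intergenic.

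The other 4 regions had smaller areas. Region 1 (chr15:50963648-50964132), the one nearest to Trps1 at 73.8 kb, had an area of 260.5 and the lowest summit of the 9, a −log10 p of 3.42. Region 7 (chr15:51216666-51216853, 327 kb) had an area of 295 and a summit of 4.13, and its width of 188 bp was at the 1.11th percentile of all regions. Region 8 (chr15:51343886-51344197, 454 kb) lay in intron 2 of Gm19303 and had an area of 208, the smallest of the 9, at the 3.32nd percentile. The smallest area in the whole list was 200.002. Region 9 (chr15:51511400-51511704), 622 kb from the Trps1 start and 354 kb from that of Eif3h, stood apart from the rest, with an area of 231 and a summit of 3.55. Of the 9 areas, 5 lay below the median of those 3072 regions, 394.

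The regions covered different parts of their control peaks. Region 4 filled 30.4% of a control peak of 1433 bp, region 3 filled 46.5% of one of 950 bp and region 5 filled 65% of one of 748 bp. The other 6 filled between 81.1% and 100% of theirs. The summit of the region was at the summit of the control peak in regions 2, 3, 7 and 8, at −18 bp and 15 bp from it in regions 4 and 5, and at −71, 81 and −134 bp in regions 6, 9 and 1. Region 7 had the same interval, area and summit −log10 p in both lists, and region 8 the same summit value, compared to 6 decimals. Of all 3103 regions, 98 (3.16%) had the same summit value in both lists and 43 of them the same interval too. Otherwise values were not compared between the lists, because the background of the first call was the genome and that of the second the EDKO libraries.

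**Figure D2:**
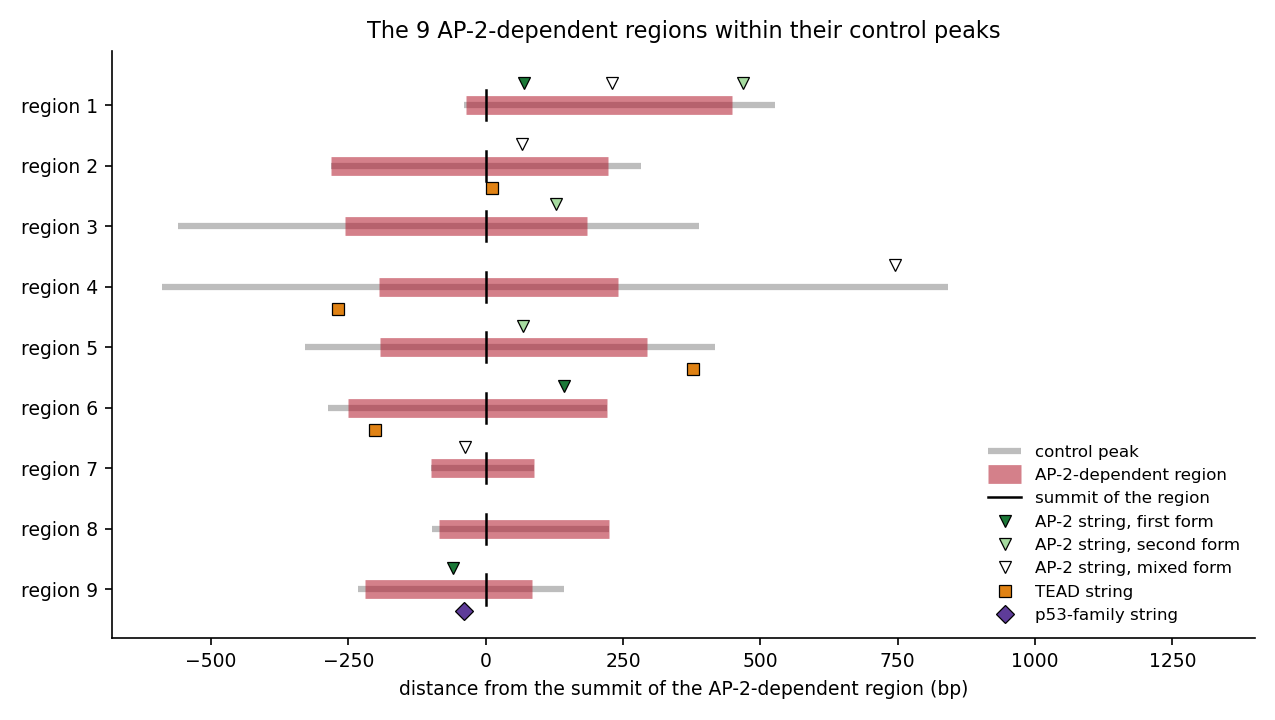
Extent of the 9 AP-2-dependent regions (red) within their control peaks (grey), in bp from the summit of each region, with matches to the AP-2 strings (triangles; first form GCCNNNGGC, second form CCCNNNGGG, mixed form GCCNNNGGG), the TEAD string (squares) and the p53-family string (diamond). Region 4 fills 30.4% of its peak, and the matches of that peak lie outside the region, whereas region 7 fills 100% of a peak of 188 bp.

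The 4 strongest of the 29 distal control peaks of the gap each contained a region. Their summits, at −log10 p 11.1, 9.41, 8.90 and 7.50, belong to the peaks of regions 4, 5, 2 and 3. The next 2, with 7.26 and 7.24, contained none. The 9 peaks with a region had summits between 3.88 and 11.1 (median 6.35) and a median width of 566 bp. The 20 without one had summits between 3.32 and 7.26 (median 4.24) and a median width of 392 bp. The ranges overlapped for both measures. The same order held among all distal control peaks of the series, where the 2621 with a region had a median summit of 6.72 and a median width of 616 bp and the 42982 without had 4.59 and 458 bp. Both calls used the same control libraries, so the height of a control peak and the presence of a region are not independent measures, and no test was made. With a limit of 5, set after the values were seen, 7 of the 13 distal gap peaks at or above it contained a region (53.8%, Wilson interval 29.1 to 76.8%), and 2 of the 16 below it did (12.5%, 3.50 to 36.0%). In the whole series 10.9% of the distal peaks at or above 5 and 2.04% of those below contained one.

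**Figure D3:**
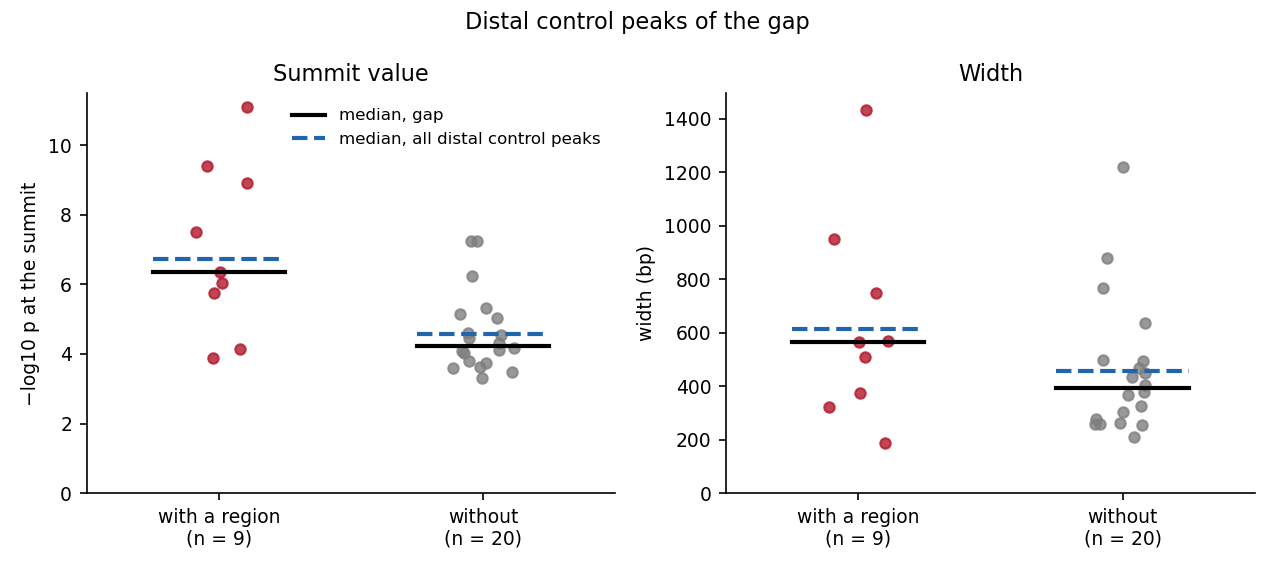
Summit −log10 p (left) and width in bp (right) of the 29 distal control peaks of the gap, with and without an AP-2-dependent region; points are peaks, black lines their medians and blue dashed lines the medians of all distal control peaks of the series. The 9 peaks with a region have a median summit of 6.35 against 4.24 for the 20 without, with overlapping ranges.

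The AP-2 palindrome was found in 3 of the 9 regions. These were regions 1, 6 and 9 (33.3%). The share was 29.7% among the other 3063 AP-2-dependent regions on chromosomes. It was 23.4% among distal control peaks and 32.4% among all control peaks on chromosomes, which are of other lengths. In the 201 bp around the summit it was found in 2 of 9, in 22.7% of the other regions, in 12.3% of all distal control peaks and in 14.4% of all control peaks. Of the 20 distal control peaks of the gap without a region, 4 held it anywhere (20%) and 2 in the summit window (10%). The match lay at 69 bp from the summit in region 1, at 143 bp in region 6 and at −60 bp in region 9, counted along the plus strand. CCCNNNGGG was found in regions 3 and 5 and in 24.8% of the other regions. GCCNNNGGG was found in regions 1, 2 and 7 and in 47.6% of the other regions. In the summit window this form was in 2 of the 9 regions (22.2%), in 36.5% of the other regions, in 8 of the 20 gap peaks without a region (40%) and in 20% of all distal control peaks. At least 1 of the 3 forms was present in 7 of the 9 regions (77.8%, Wilson interval 45.3 to 93.7%), in 74.0% of the other regions, in 54.1% of the distal control peaks and in 62.4% of all control peaks. The 20 gap peaks without a region held one in 12 (60%, 38.7 to 78.1%). Within 201 bp at the summit the shares were 5 of 9 regions (55.6%), 62.6% of the other regions, 35.2% of distal and 39.3% of all control peaks, and 9 of the 20 gap peaks without a region (45%). The intervals of the 9 and of the 20 overlap widely. Regions 4 and 8 held none of the 3. A form with 4 bases between the arms, GCCNNNNGGC, was found in region 6 only, at −178 bp from the summit, and in 23.5% of the other regions. These strings are short and a match is not a binding site.

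Strings of other factors were found in 3 of the 9 regions. TEAD factors, which act in the Hippo pathway, had their string at 12 bp from the summit of region 2 and at −202 bp from that of region 6. It was present in 30.8% of the other regions, and in 201 bp at the summit in 1 of 9, in 19.2% of the other regions and in 21% of distal control peaks. The p53-family string, read also by p63 of the epidermis, was found in region 9, at −39 bp from the summit and in the stretch printed above, and in 18.0% of the other regions. The GRHL string AACCNGTT, of the grainyhead-like factors of epithelia, and the PBX string TGATTGACA were in none of the 9, and in 4.93% and 2.06% of the other regions. The string of CTCF, which marks many boundaries of chromatin domains, was in none of the 40 control peaks of the interval (Wilson interval 0 to 8.76%). It was in 7.61% of all control peaks, 8.32% of all distal ones and 0.653% of the other AP-2-dependent regions. The upper limit of 8.76% lies just above the 7.61% and 8.32%, so 0 among 40 peaks is below these shares but does not stand apart from them. All of these strings were searched on both strands.

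The 9 regions shared no long stretch of sequence. The longest word shared by a pair of regions, on either strand, was 7 to 12 bp over the 36 pairs, with a median of 9 bp. Each 31-base word of every region occurred 1 time in the assembly (100%). Soft-masked repeats made up 0 to 12.9% of them. GC content was 34.0 to 49.9% with a median of 41.4%, and the median of all AP-2-dependent regions was 48.0%. Among the distal control peaks of the gap, the 9 with a region had a median GC content of 40.9% and the 20 without one of 45.3%, and in the whole series these medians were 47.0% and 50.1%.

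The gap was compared with the other gaps of at least 500 kb between neighbouring coding start sites, of which there were 1084 in all. Most held few regions, with a median of 0, and 499 held at least 1. With 9 regions the Trps1 to Eif3h gap stood at rank 3, and at rank 21 when only peaks and regions with an area of 500 or more were counted, which left regions 2 and 4. The gap between Ttll7 and Adgrl2 held 13 and that between Tfap2b, one of the genes deleted in EDKO ectoderm, and Pkhd1 held 12. Per length, it stood at rank 1 with 9.23 regions per Mb, followed by the Gm21887 to Asmt gap with 9.05 and the Tfap2b to Pkhd1 gap with 8.52. The Gm21887 to Asmt gap is not comparable by this measure, since its 6 regions stood beside 3 control peaks, of which 1 contained a region, whereas each region of the Trps1 to Eif3h gap lay in a control peak of its own. Control peaks were also dense, with 3.18 per 100 kb, rank 90 of 1084, against a median of 0.980 and quartiles of 0.400 and 1.86 over the 1084 gaps. These gaps include those of chromosome Y, many of which held 0 control peaks, and the median and quartiles were not computed without them. With an area of 500 or more the density was 1.74 per 100 kb. The median and quartiles above cover peaks of any area, so this value cannot be set against them. Among the 214 gaps with at least 20 control peaks, the Trps1 to Eif3h gap had rank 2 by the share of peaks with a region. It came after the Dph6 to BC052040 gap with 7 of 20 (35.0%) and before the Sema3d to Sema3a gap with 8 of 32 (25%). The median share among the 214 was 4.76%. Some gaps with fewer control peaks had higher shares, such as Pcdh20 to Pcdh9 with 6 of 15 (40%) and 4921530L21Rik to Klhl1 with 5 of 10 (50%). These ranks describe a locus picked for its regions and carry no test.

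**Figure D4:**
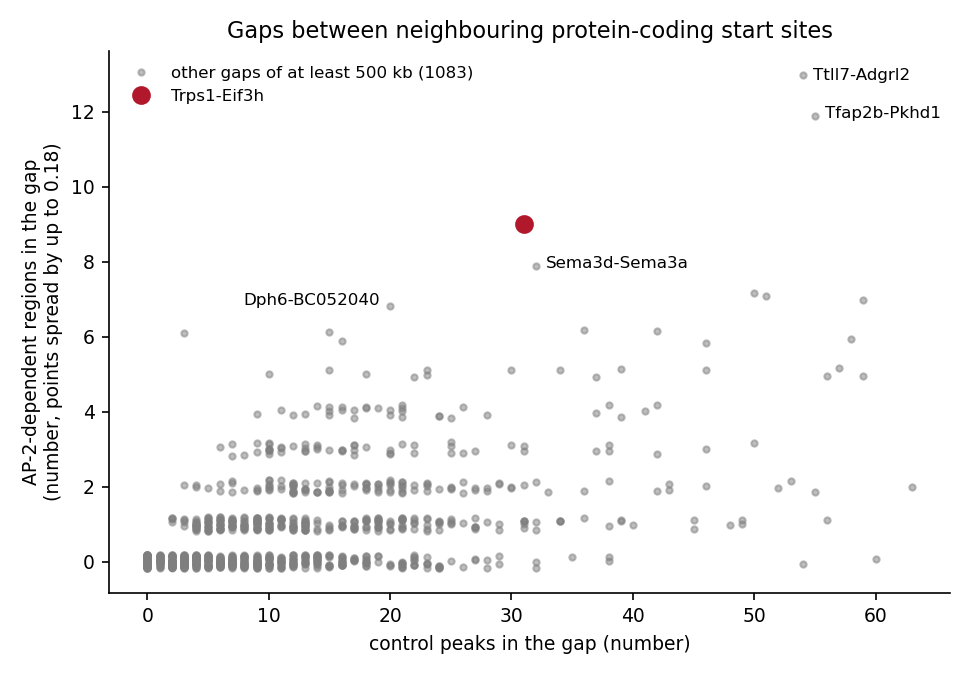
Number of AP-2-dependent regions against number of control peaks in each of 1084 gaps of at least 500 kb between neighbouring protein-coding start sites; grey points are spread vertically by up to 0.18 so that they can be seen. The Trps1-Eif3h gap (red) has 9 regions in 31 control peaks, and 2 gaps have more regions.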

How the data were processed

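The authors trimmed adapters with NGmerge, aligned reads to mm10 with Bowtie2 and kept up to 10 positions per pair. Peaks were called with Genrich in ATAC-seq mode, with duplicates and mitochondrial reads removed. Control peaks came from 2 control libraries against the genomic background, and AP-2-dependent regions from the same libraries against 2 EDKO libraries. The authors deposited for each peak the area under the curve, a score that sums −log10 p above a threshold, the −log10 p at the summit, which was not adjusted, and the summit position.

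The members, gene lists and strings were chosen with earlier results of these data known. Start sites were those of principal transcripts in GENCODE vM21, 1 per coding gene (21938 genes). A peak contained a region if they overlapped by 1 bp or more. Distal peaks have no start site within 5 kb. Named were Trps1, Eif3h, coding genes starting in the interval, genes whose body holds a named peak, every region, control peaks with a region or within 1 kb of a named start, and the 10 strongest others. The genes of other deserts, the non-coding genes of the gap and Rad21 were named after their values were seen. Strings were searched on both strands with Python 3.11.15, numpy 2.4.6, pandas 2.3.3 and numba 0.67.0. Overlaps and string search were tested on simulated data. Intervals of shares are Wilson intervals at 95% and cover only the error of counting. No p-value was computed, as a peak is no replicate. Read depth per library is not known from these files. Sequences are from the GRCm38 RefSeq assembly. The list for facial mesenchyme had 1 further gene, which is not reported here.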

Additional observations from a re-analysis of the deposited data

How the results depend on the processing

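For 7 results 32 alternative values were computed, of which 21 stayed within 1.5 times the main count or within its Wilson interval and 11 did not. The strictest, a minimum of 500 for the area under the curve in both lists, left 24 control peaks, 2 regions (regions 2 and 4), shares of 8.33% (Wilson interval 2.32 to 25.8%) in the interval and 11.8% (3.29 to 34.3%) between the start sites, 1.74 control peaks per 100 kb, 0 regions with GCCNNNGGC and rank 21 among the gaps. At that area 2.46% of all control peaks and 3.61% of the distal ones contained a region. The number of regions with an AP-2 string was 1 with 4 bases between the arms and, chosen after seeing the data, 7 with any of the 3 forms. The rank was 1 by regions per Mb. In base pairs covered the density was 16.3 per kb, another unit. Extending the interval by 0, 50 or 200 kb gave 31, 37 or 46 control peaks and shares of 29.0%, 24.3% or 19.6%, with 9 regions each time. An overlap of at least 50% of both intervals gave 17.5% and 22.6%. Among gaps of at least 1000 kb no rank could be given, since this gap is shorter. No paired analysis was possible because each list combines its libraries, and for the same reason no library could be left out.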

Other observations

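On the other side of Trps1, the stretch from its 3′ end to the start of Csmd3, the neighbouring coding gene, was 1863 kb long. It held 9 control peaks, or 0.483 per 100 kb, with a median summit −log10 p of 4.03 and a highest one of 8.98, and 1 of the 9 (11.1%, 95% Wilson interval 1.99 to 43.5%) contained an AP-2-dependent region. The body of Trps1, 235.7 kb long, held 9 control peaks, or 3.82 per 100 kb, and 0 AP-2-dependent regions (Wilson interval 0 to 29.9%). Of these 9 peaks, 7 are those of the Trps1 flank described above, and 2 lay outside the interval. With 4.48% of all control peaks and 5.75% of distal ones containing a region in the series, counts of 1 and 0 among 9 do not stand apart from the background. In bins of 100 kb from the Trps1 start towards Eif3h, the first 500 kb held 1, 3, 2, 1 and 1 regions among 5, 5, 3, 1 and 1 control peaks. The next bin held 0 among 2, and the bin between 600 and 700 kb held 1 among 4. The bins beyond held 0 regions among 2, 3, 6 and 1 control peaks.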
